A study of Mus musculus with 96 samples.

Results

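The proteasome genes were taken as all rows of the count table whose symbols begin with Psma, Psmb, Psmc, Psmd, Psme, Psmf or Psmg, without the immunoproteasome subunits Psmb8, Psmb9 and Psmb10 and without rows named as pseudogenes. This rule found 46 of 38406 genes, and it used no measured value. The proteasome is the protease that degrades ubiquitin-tagged proteins. Its core particle is a barrel of alpha and beta subunit rings with the active sites inside, and its regulatory particle consists of a base, whose ATPases unfold substrates and feed them into the barrel, and a lid, which removes ubiquitin. Dedicated chaperones assemble both particles, and other activators can cap the core. Adult hematopoietic stem cells (HSCs) are known for low rates of protein synthesis and for their sensitivity to faults in protein quality control.

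The libraries came from single cells of the HSC1 gate of the study, which takes bone marrow cells that lack lineage markers, CD34, Flt3 and CD48 and carry c-Kit, Sca-1 and CD150. The donors were C57BL/6 mice of 9 to 12 weeks for which the labels give no treatment or genetic change, and no cell is tied to an animal. The 96 cells are therefore 1 population with no second group, and every value below describes the spread between these cells without a test over animals. Of the 96 cells, 92 passed technical filters. They held 739093 to 3473151 gene counts each, with 4945 to 8727 genes counted and an ERCC spike-in share of 0.377% to 2.64% of all counts. Levels are given as normalized counts, which are counts divided by a size factor per cell, and levels of different genes are compared as normalized counts per kb of annotated exon.

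The gate was checked against markers. All 7 stem cell genes (Kit, Ly6a, Slamf1, Procr, Mecom, Hlf and Meis1) were counted, in 58 to 92 cells each. Of the genes of other lineages, Hba-a1, Mpo, Elane, Cd3e and Klrd1 were counted in 0 of 92 cells, as was the gate marker Cd48. A count of 0 in 92 cells allows a share of up to 3.26% of cells with a read, which is not a limit on cells that express the gene. Other markers of these lineages were counted: Cd79b in 63 cells, Gp9 in 53, Pf4 and Itga2b in 34 each and Epor in 19. Prtn3 and Lyz2 of the granulocyte list were counted in 90 and 92 cells, and Cd34, which the gate excludes at the surface, in 53 cells, with Flt3 in 17.

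Promoter sequences are shown for 5 members on which the results below turn: 2 catalytic subunits, Psmc1, Psma3 and the base chaperone Psmd9. By Pearson's r, Psmc1 and Psma3 were 2 of the 3 genes that went most closely with the rest. Psmd9 went least with them. Windows of 250 bases before to 50 bases after the RefSeq gene start (GRCm38.p6) matched 38 of the 46 members. Capitals mark TGACNNNGC, the core of the element bound by the transcription factors Nfe2l1 and Nfe2l2, or CCAAT, the box bound by NF-Y, on either strand, and no window printed here holds both motifs. Psmb5 encodes the chymotrypsin-like catalytic subunit and its window lies at chr14:54617946-54618245 on the minus strand. Psmb6 encodes the caspase-like catalytic subunit and its window lies at chr11:70525107-70525406 on the plus strand. Psmc1, an ATPase of the base, lies at chr12:100109952-100110251 on the plus strand. Psma3, an alpha ring subunit, lies at chr12:70974373-70974672 on the plus strand. Psmd9, a chaperone of the base, lies at chr5:123227940-123228239 on the plus strand.
Psmb5: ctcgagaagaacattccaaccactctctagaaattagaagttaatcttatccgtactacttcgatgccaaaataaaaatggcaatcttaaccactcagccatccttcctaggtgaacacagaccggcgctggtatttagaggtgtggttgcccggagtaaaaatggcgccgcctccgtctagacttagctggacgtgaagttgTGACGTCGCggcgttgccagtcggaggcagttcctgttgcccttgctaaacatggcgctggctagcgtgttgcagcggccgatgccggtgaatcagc
Psmb6: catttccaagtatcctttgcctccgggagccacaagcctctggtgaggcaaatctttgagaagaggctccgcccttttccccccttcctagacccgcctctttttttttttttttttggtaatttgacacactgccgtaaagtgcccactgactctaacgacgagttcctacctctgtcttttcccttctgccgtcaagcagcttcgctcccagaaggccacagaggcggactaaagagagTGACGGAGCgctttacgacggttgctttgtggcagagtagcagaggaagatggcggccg
Psmc1: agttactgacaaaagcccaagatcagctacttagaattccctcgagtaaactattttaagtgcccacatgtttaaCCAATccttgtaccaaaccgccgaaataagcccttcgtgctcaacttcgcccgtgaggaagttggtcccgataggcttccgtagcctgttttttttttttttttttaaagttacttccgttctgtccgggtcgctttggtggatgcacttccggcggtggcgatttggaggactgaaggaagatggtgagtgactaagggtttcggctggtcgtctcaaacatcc
Psma3: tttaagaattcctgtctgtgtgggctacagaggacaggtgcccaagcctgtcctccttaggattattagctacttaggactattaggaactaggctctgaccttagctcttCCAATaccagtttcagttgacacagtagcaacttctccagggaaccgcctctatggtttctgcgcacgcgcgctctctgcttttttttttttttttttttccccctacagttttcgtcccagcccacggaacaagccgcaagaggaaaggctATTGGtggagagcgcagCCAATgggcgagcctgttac
Psmd9: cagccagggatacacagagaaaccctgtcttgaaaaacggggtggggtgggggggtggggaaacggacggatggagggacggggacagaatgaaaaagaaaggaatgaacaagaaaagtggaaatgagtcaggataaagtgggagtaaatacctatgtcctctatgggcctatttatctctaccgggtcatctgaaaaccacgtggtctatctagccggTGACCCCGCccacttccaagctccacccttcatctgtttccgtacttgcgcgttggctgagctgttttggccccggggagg

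The TGACNNNGC core began 47 bases before the start in Psmb5, 9 bases before it in Psmb6 and 31 bases before it in Psmd9. It was found in 6 of the 38 members with a window (15.8%) and in 13.99% of the 27025 genes with a window. CCAAT began 175 bases before the start in Psmc1, and Psma3 held 3 matches. CCAAT was found in 14 of 38 members (36.8%) and in 41.1% of all genes. Both shares lay close to those of all genes, and a match of letters is not a site in use. Nfe2l1, which drives proteasome genes when proteasome activity falls, was itself counted in 57 of 92 cells at a mean of 52.1 ± 86.8 normalized counts (SD, n = 92 cells), and Nfe2l2 in 81 cells at 363 ± 340.

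All 46 genes had at least 1 count. The genes were broadly expressed in these stem cells: 7 were counted in all 92 cells (Psma3, Psma6, Psma7, Psmb1, Psmb2, Psmb4 and Psme1), 30 in at least 80 cells and 41 in at least 46 cells. The 5 genes below that were Psma8, Psmb11, Psmc3ip, Psme4 and Psmg3. The median of the 46 mean levels was 239 normalized counts. Failure to count a gene in a cell need not mean absence: 3 spike-ins with a mean of 100 to 300 raw counts, which every library received, were counted in 64 to 83 cells, and the 23 members in this range in 60 to 89 cells with a median of 81. At means of 300 to 1000 raw counts, 4 spike-ins were counted in 88 to 92 cells and 16 members in 81 to 92.

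**Figure D1:**
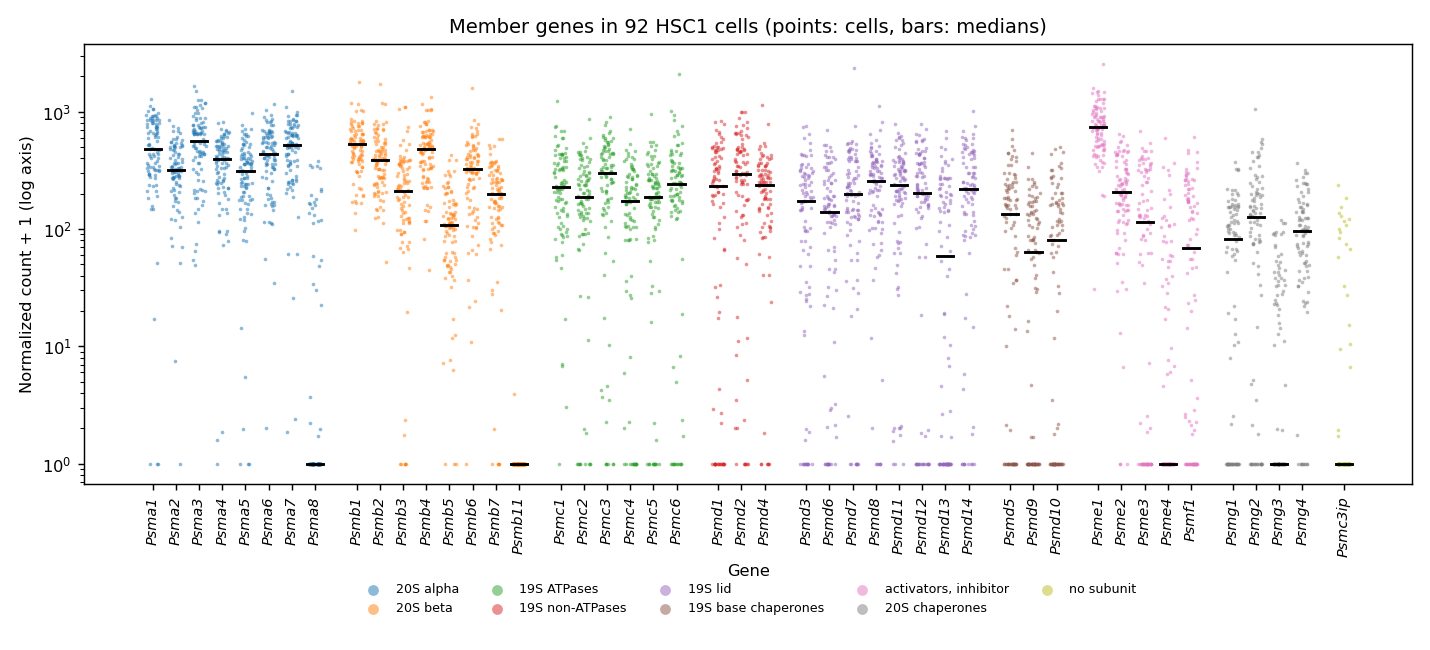
Normalized count plus 1 (log axis) of the 46 genes in 92 HSC1 cells, with 1 point per cell, a bar at the median and colors for the gene groups. Psme1 has the highest median (741), the 7 alpha ring genes have few cells at 0, and the medians of Psma8, Psmb11, Psme4, Psmg3 and Psmc3ip are at 0.

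The alpha subunits form the outer rings of the core, which gate the channel and dock the activators. Psma1 to Psma7 were counted in 89 to 92 cells each. Psma6 had the highest level per length, at 373 ± 195 normalized counts per kb (SD, n = 92 cells), and Psma2 the lowest of the ring at 94.7 ± 47.7. Normalized counts of Psma6 ran from 1.01 through a median of 439 to 1168, and those of Psma2 from 0 through 321 to 850. The ring subunits are present in equal number in the particle, and their RNA levels per length spanned 3.94-fold. The gene at the top was not settled by these data, since with the longest annotated transcript in place of all exons Psma1 ranked first and the span was 3.76-fold. Psma8, the alpha subunit of the testis-type proteasome, stood apart: it was counted in 29 of 92 cells at 45.8 ± 93.3 normalized counts, with a median of 0 and a highest cell at 376. Its level per length was 18.3 ± 37.4. The other ring members lay in between, with Psma5 at 247, Psma1 at 183, Psma7 at 169, Psma4 at 162 and Psma3 at 152 normalized counts per kb. These neighbors differed by less than their SDs over cells, which were 80.2 to 146 per kb.

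The beta subunits form the inner rings and include the 3 proteases. Psmb1 to Psmb7 were counted in 86 to 92 cells each. Psmb2, a structural subunit, had the highest level per length at 354 ± 214 normalized counts per kb, and its normalized counts ran from 51.7 through 385 to 1718. Psmb7, the trypsin-like catalytic subunit, was lowest at 61.1 ± 38.6 per kb, with normalized counts from 0 through 197 to 583. The span of the ring was 5.80-fold and 6.77-fold with the longest transcript, with the same genes at both ends. Exons of Psmb7 overlap those of Nek6 over 11.8% of their length, and reads there cannot be assigned without strand. Exons of Psmb5 overlap Mir686 over 12.1% of their length. Psmb4, Psmb6, Psmb5, Psmb1 and Psmb3 lay at 251.2, 182, 137, 118 and 109 normalized counts per kb. Psmb11, the beta subunit of the cortical thymus epithelium, was counted in 1 of 92 cells with 3 raw counts.

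The catalytic positions can also be filled by the immunoproteasome subunits, so the 3 pairs were set side by side. Psmb5 ran from 0 through a median of 107 to 427 normalized counts and was counted in 89 cells, and Psmb6 from 0 through 321 to 1606 in 91 cells. Psmb8 was counted in all 92 cells, Psmb9 in 91 and Psmb10 in 88, so both kinds of subunit were transcribed in nearly every stem cell. Per kb, Psmb5 stood at 137 ± 102 and Psmb8 at 109 ± 67.2, which makes the immunoproteasome gene 44.3% of the pair. Psmb6 stood at 182 ± 125 and Psmb9 at 81.4 ± 54.4, with an immunoproteasome share of 30.9%. At the trypsin-like position the order was the opposite, with Psmb7 at 61.1 ± 38.6, Psmb10 at 183 ± 139 and a share of 74.98%. The share in single cells had a median of 46.9% for Psmb8, 31.01% for Psmb9 and 73.4% for Psmb10, and Psmb10 was over its partner per length in 78 of the 91 cells with a count of either gene. For Psmb9 this was so in 18 of 92 cells. Exons of Psmb8 overlap those of Gm20496 over 14.7% of their length, and exons of Psmb9 those of Tap1 over 5.8%. The levels of both are therefore uncertain too. The order of Psmb5 and Psmb8 depends on the length used, as the share of Psmb8 was 58.5% with the longest transcripts and 74.95% with no length correction, while the sides of the other pairs held in all 3 cases. Across cells the RNA levels within a pair had r of 0.087, -0.0047 and 0.20 in the same order. These r cannot show whether cells with more RNA of one subunit held less of the other, since the variation of each gene lay below the technical value described below. The ratios to that value were 0.317, 0.662 and 0.370 for Psmb5, Psmb6 and Psmb7, and 0.571, 0.563 and 0.758 for Psmb8, Psmb9 and Psmb10.

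The 6 ATPases of the base form the ring that unfolds substrates. They were counted in 79 to 91 cells each. Psmc5 was highest per length at 150 ± 116 normalized counts per kb and Psmc2 lowest at 42.2 ± 31.4, a span of 3.57-fold. Psmc5 ran from 0 through 188 to 954 normalized counts and Psmc2 from 0 through 188 to 860. With the longest transcripts Psmc1 ranked first and the span was 2.83-fold. Psmc1 stood at 142, Psmc3 at 117, Psmc4 at 82.97 and Psmc6 at 80.5 per kb, so the ATPase ring had a narrower span than either core ring. Psmc3ip begins with the same letters but encodes a partner of meiotic recombinases, not a subunit. It was counted in 22 cells at 19.1 ± 46.3 normalized counts, or 10.5 ± 25.5 per kb, and its exons overlap those of Mlx over 21.2% of their length.

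Of the non-ATPases of the base, Psmd1 and Psmd2 are scaffolds that hold ubiquitin receptors, and Psmd4 is itself a ubiquitin receptor. Psmd4 was highest per length at 86.1 ± 61.9 normalized counts per kb, close to Psmd2 at 81.2 ± 64.3, and Psmd1 was lowest at 34.6 ± 31.005. Psmd4 ran from 0 through 235 to 1151 normalized counts in 86 cells counted, Psmd1 from 0 through 233 to 827 in 73 cells, and Psmd2 from 0 through 291 to 1003 in 85 cells.

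In the lid, Psmd14 is the deubiquitinase that cuts ubiquitin chains from substrates and Psmd7 its partner, and most of the other subunits form the scaffold around them. Psmd7 had the highest level per length at 110 ± 123 normalized counts per kb, followed by Psmd14 at 90.4 ± 73.5 and Psmd12 at 89.2 ± 73.1. The order of the first pair depends on the length used, since with the longest transcripts Psmd14 stood at 165 and Psmd7 at 158 per kb. Without cell 18 the mean of Psmd7 was 226 normalized counts in place of 249. Psmd13 was lowest at 37.4 ± 45.7, with normalized counts from 0 through 57.9 to 680 in 60 cells counted. Exons of Psmd13 overlap those of Sirt3 over 10.1% of their length. Psmd8 at 85.6, Psmd6 at 60.2, Psmd11 at 39.6 and Psmd3 at 38.4 per kb were the other lid genes among the members. All 8 genes were counted in 60 to 89 cells.

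The assembly chaperones covered a wide range. Among those of the base, Psmd10 (gankyrin) stood at 74.6 ± 86.3 normalized counts per kb, Psmd5 at 21.1 ± 21.3 and Psmd9 at 11.5 ± 12.7. Psmd10 ran from 0 through 79.1 to 497 normalized counts and Psmd9 from 0 through 62.6 to 445, each in 61 cells counted. Psmd9 is uncertain, since 25.5% of its exon length overlaps Gm26745. Among the chaperones that assemble the core, Psmg4 was highest at 190 ± 150 per kb and Psmg3, its binding partner, lowest at 7.60 ± 10.95. Psmg4 ran from 0 through 95.4 to 364 normalized counts in 83 cells and Psmg3 from 0 through 0 to 118 in 45 cells. Psmg1 and Psmg2, the other partner pair, stood at 64.2 and 90.8 per kb.

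The activators cap the core in place of the regulatory particle, and Psmf1 can inhibit it. Psme1, a subunit of the interferon-inducible cap, was counted at 787 ± 380 normalized counts, from 29.5 through 741 to 2556 in 92 cells. Per length it stood at 356 ± 172, and its partner Psme2 at 133 ± 87.6. A pseudogene, Psme2b-ps, has its own row, and reads could have been split between this row and Psme2. Psme3, of the nuclear cap, stood at 52.9 per kb and Psmf1 at 18.2. Psme4, the cap best known from sperm development and DNA repair, was lowest at 5.63 ± 11.6 per kb, with normalized counts from 0 through 0 to 591 in 40 cells counted.

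As sums, the alpha genes took 27.6% of all member counts, the beta genes 20.5%, the lid 14.7%, the ATPases 12.6%, the activators with Psmf1 11.4% and the non-ATPases of the base 7.06%. The chaperones of the core took 3.23%, those of the base 2.84% and Psmc3ip 0.187%. In 4 cells no count fell in any of the 3 base chaperones. By counting error alone this allows a share of up to 0.000141% to 0.000253% of the gene counts of these cells, and RNA lost before sequencing is not covered by that limit.

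Whether any gene varied between stem cells beyond technical noise was tested with the method of Brennecke et al., a chi-square test that compares the squared coefficient of variation of a gene with a curve fitted to the spike-ins. None of the proteasome genes was called: 0 of 46 had an adjusted p under 0.1, where 2.64% of all 21211 genes with counts were called. With 46 genes, 0 calls lies close to that share. By this chi-square test 0 of 46 had an unadjusted p under 0.05. The lowest unadjusted p of a member was 0.39 (Psmd7). The test asks for a biological coefficient of variation above 0.5, so smaller differences between cells are not covered by it. The curve also lay above most genes, so larger differences can be missed too. By position alone, 2 members lay above the technical curve, Psmd7 at 1.34 times and Psmc6 at 1.24 times the technical value, where 12.4% of all genes and 24.8% of the 5888 genes with a mean of at least 50 did so. Of those 5888 genes, 4.5% were called. Of the 41 members with a mean of at least 50, the median ratio to the curve was 0.613, beside 0.778 for all genes with such a mean.

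Both genes above the curve were there through 1 cell. Psmd7 ran from 0 through a median of 197 to 2340 normalized counts in cell 18, and the next cell reached 755. Psmc6 ran from 0 through 240 to 2102 in cell 18, and the next cell reached 1024. Cell 18 had the most gene counts of the 92 cells and the fewest genes counted, and it was the highest cell for 13 of the 46 members while it lay below the median for 19. Without it, 0 members lay above the curve. Psmd1, the third in order among members with a mean of at least 50, lay at 0.876 times the technical value. The 3 genes with the smallest ratios at a mean of at least 50 were Psmg4 (0.308), Psmb5 (0.317) and Psma2 (0.364).

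**Figure D2:**
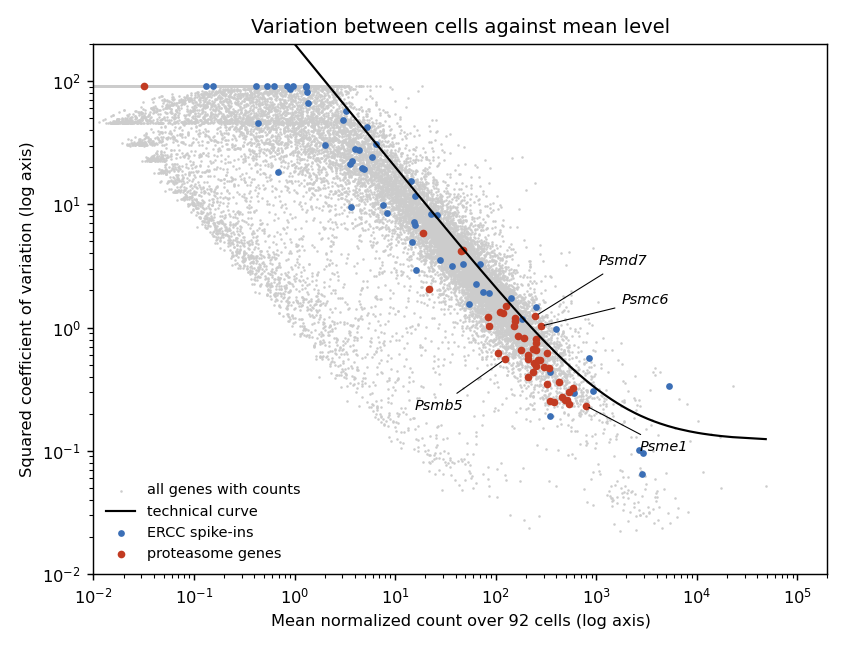
Squared coefficient of variation against mean normalized count over 92 cells (both log axes) for all genes with counts (grey), ERCC spike-ins (blue) and proteasome genes (red), with the fitted technical curve as a line. All proteasome genes lie below the curve except Psmd7 and Psmc6, and none is called variable.

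Psmd1 and 2 other genes were called when the spike-ins, instead of the genes, set the scale of each cell. On that scale Psmd1, Psmd13 and Psme3 had an adjusted p under 0.1 by the same test, 34 members lay above the curve, 4.94% of all genes were called and 24.9% lay above it. That scale keeps differences in total RNA between cells, and the summed proteasome counts then spanned 14.2-fold between cells.

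Single genes were noisy, but their sum was not flat. The 46 genes together took 0.479% of the gene counts in the lowest cell (cell 50), 0.724% in the median and 1.31% in the highest (cell 74), a span of 2.72-fold. The exact 95% intervals of single cells were 0.0184 to 0.0396 percentage points wide, which is narrow beside this span but covers counting error only, since reads were not marked by molecule. In cell 74, 42 of the 46 genes lay above their own median over cells, and in cell 50, 16 lay above and 26 below. High shares were also found in cell 53 (1.21%, with 40 genes above their median), cell 18 (1.13%, with 22), cell 78 (1.12%, with 36) and cell 9 (1.08%). In cell 18 the high share was carried by fewer genes than in cells 74, 53 and 78. The summed normalized count had a coefficient of variation of 0.263, and the share one of 0.227. That of the summed count would be 0.114 if each gene varied by its own amount independently of the others. It would be 0.144 if each varied independently by the technical amount. Cell 18 had the highest summed count at 27608.5, followed by cell 53 at 20317.1, and the coefficient was not computed without cell 18. By group, the coefficient lay above the technical one for the beta genes (0.353 beside 0.323) and the ATPases (0.433 beside 0.397). It was close to it for the alpha genes (0.288 beside 0.283) and the lid (0.363 beside 0.362). For the other groups it lay below, as for the base chaperones (0.652 beside 0.789). Between 28 and 45 of the members were counted per cell, with a median of 38.

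**Figure D3:**
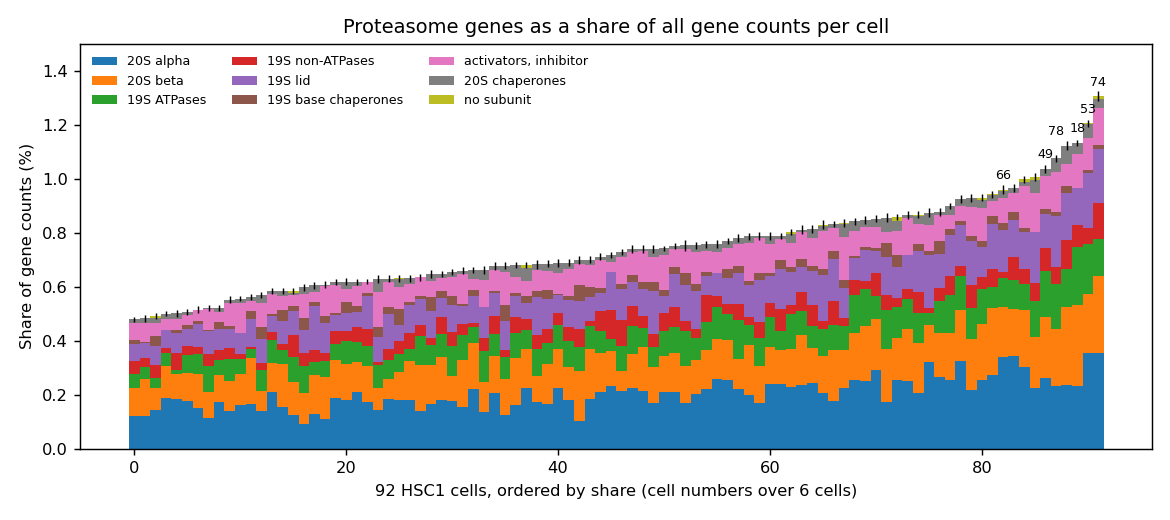
Share of all gene counts (%) taken by the proteasome genes in each of 92 cells, ordered by share and stacked by gene group, with exact 95% intervals (counting error only) as vertical lines. The share rises from 0.479% to 1.31%, and all large groups contribute at the high end.

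The groups of subunits went together across cells. Between the summed shares of the alpha, beta, ATPase, non-ATPase and lid genes, the 10 values of r ran from 0.31 to 0.56 with a median of 0.44 (n = 92 cells, which share library depth within each cell). The largest was that of the beta genes with the ATPases, at 0.56, followed by the alpha with the beta genes at 0.51 and the beta genes with the lid at 0.49. The median was 0.41 at equal numbers of detected genes, 0.35 at equal spike-in share and 0.45 without cell 18. The core chaperones had r of 0.35 with the alpha genes, 0.37 with the beta genes and 0.40 with the ATPases, and the activators 0.42 with the ATPases. The base chaperones had r of -0.08 with the ATPases and -0.14 with the non-ATPases of the base that they assemble, and -0.19 to 0.01 over all 5 subunit groups. The core chaperones were positive with all 5 groups, at 0.10 to 0.40, but their r with the non-ATPases was -0.0060 at equal spike-in share. Why the chaperone groups differ was not tested.

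**Figure D4:**
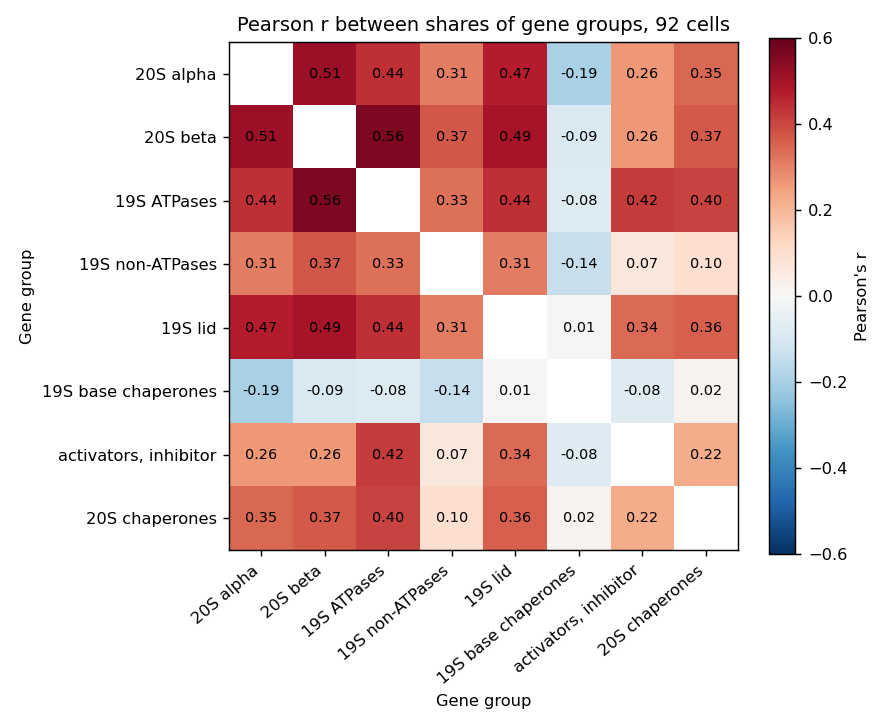
Pearson's r between the summed shares of 8 gene groups over 92 cells, from blue (negative) through white to red (positive), with the value printed in each square. The 5 subunit groups are positive with each other (0.31 to 0.56), and the row of the base chaperones is near or below 0.

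Gene by gene the relations were weak. The 1035 pairs of members had a median r of 0.06 on log10(normalized count + 1), and 70.7% were positive. Over the 6179 genes counted in at least 46 cells, the median of all pairs was 0.01 with 54.2% positive, and over the 41 members that meet this limit it was 0.06 with 71.7%. The 3 largest were Psmc1 with Psmd2 (r = 0.49, rho = 0.22), Psma3 with Psmd4 (0.42, rho = 0.22) and Psma5 with Psmc1 (0.40, rho = 0.42), all between different groups. With the sum of the other members, r was positive for 43 of 46 genes and over 0.2 for 28. It was largest for Psmc1 (0.39), the beta subunit Psmb2 (0.37) and Psma3 (0.34), and smallest for Psmd9 (-0.08), Psmb11 (-0.07) and the alpha subunit Psma4 (-0.02). The order at the top depends on the measure. By rho, Psma1 was highest at 0.44, followed by Psmb2 at 0.42, while Psma3 had 0.36 and Psmc1 0.28. Psmd9 was lowest by rho as well, at -0.12, with Psmb11 at -0.08 and Psma4 at 0.07. Psma4 was counted in 91 cells, beside 61 for Psmd9 and 1 for Psmb11.

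What else went with the proteasome share was read from lists of genes, each scored by its mean z score per cell. The 93 nuclear genes of oxidative phosphorylation with counts, which encode the mitochondrial respiratory chain, had r = 0.72 with the share (rho = 0.67, n = 92 cells). It was 0.67 at equal detected genes, 0.62 at equal spike-in share and 0.65 without cells 49, 53, 66 and 78, which stood apart on the first principal component of the variable genes. Of the 46 members, 45 had a positive r with this list and 24 were over 0.2, led by Psmd13 (0.41) and Psmd2 (0.40). The chaperonin Cct genes, which fold newly made proteins, had r = 0.42. The ribosomal protein genes did not rise with the share, at r = -0.21, and that value was -0.08 without cell 18 and -0.49 at equal spike-in share.

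Replication genes of the G1/S list had r = 0.50 (rho = 0.31), and 0.36 without cells 49, 53, 66 and 78. Of this list, 5 of 20 genes were called variable (Mcm5, Mcm7, Rrm1, Rrm2 and Uhrf1), where 2.64% of all genes were. The mitotic G2/M list, of which 14 of 20 genes were called, had r = 0.38, and 0.10 without these 4 cells. The stem cell list went the other way, at r = -0.47 (rho = -0.41) and -0.35 without the 4 cells. Its genes were uneven, with r of -0.42 for Hlf, -0.36 for Ly6a, -0.31 for Mecom and -0.28 for Procr. Meis1 (-0.14) and Slamf1 (-0.13) were weaker, and Kit was at 0.09. PC1, turned so that Procr is negative, had r = 0.57 (rho = 0.37) and 0.43 without the 4 cells, and no proteasome gene entered it. Of the other lineages, the megakaryocyte list had r = 0.38, which was 0.14 without the 4 cells, and the erythroid list 0.34.

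**Figure D5:**
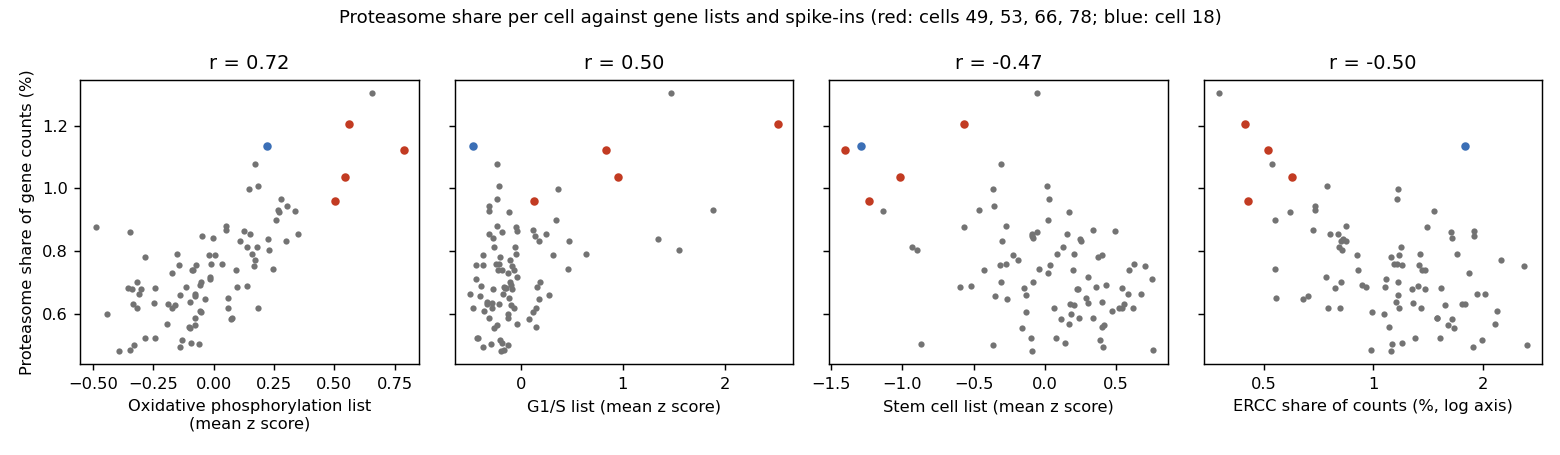
Proteasome share of gene counts (%) in 92 cells against the scores of the oxidative phosphorylation, G1/S and stem cell lists (mean z scores) and against the ERCC share of all counts (%, log axis), with cells 49, 53, 66 and 78 in red and cell 18 in blue. The share rises with oxidative phosphorylation (r = 0.72) and G1/S (r = 0.50), and falls with the stem cell list (r = -0.47) and the spike-in share (r = -0.50).

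RNA content and detected genes moved with the share as well, and depth only weakly. The log10 spike-in share, which falls as the RNA of a cell rises against the added spike-ins, had r = -0.50 with it, and -0.37 at equal detected genes. The log10 number of detected genes had r = 0.38, and 0.10 at equal spike-in share. For depth, log10 gene counts had r = 0.22, and 0.16 without cell 18. Their part in the relations to gene lists was not tested beyond the partial values given.

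The rest of the pathway was read in the same way, and none of its genes was called variable by the same test. This holds for 3 immunoproteasome genes, 9 other proteasome genes, 11 of ubiquitin activation and shuttling and 4 ubiquitin genes. It also holds for 7 of Nfe2l1 and its processing and 7 of MHC class I presentation. Over all genes 2.64% were called, and 0 of these 41 lies close to that share. By the same test 0 of the 41 genes had an unadjusted p under 0.05. Above the curve lay 3 other proteasome genes, among them Zfand5, a proteasome-binding stress protein, at 2.02 times the technical value, and 1 gene each of the ubiquitin, Nfe2l1 and MHC class I lists, where 12.4% of all genes lay above it, and 24.8% of those with a mean of at least 50. The other proteasome genes include Pomp, the maturation factor of the core (268 ± 155 normalized counts, SD, n = 92 cells), the lid subunit Shfm1 (237 ± 111) and the deubiquitinase Usp14 (268 ± 287). As a list they had r = 0.41 with the share of the 46 genes. The list of ubiquitin activation had r = 0.33, and it includes the activating enzyme Uba1 (429 ± 288 normalized counts) and the unfoldase Vcp (409 ± 198). The immunoproteasome genes had r = 0.27, while the ubiquitin genes (r = -0.03), the Nfe2l1 list (-0.07) and MHC class I presentation (-0.12) lay near 0.

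Of 6138 other genes counted in at least 46 cells, those whose levels went most closely with the mean z score of the 46 genes were Nme1, a nucleoside diphosphate kinase (r = 0.56), Pfn1, which binds actin (0.56), Eif5a, a translation factor (0.55), Ppia, a prolyl isomerase (0.55) and Gm13461 (0.53). The most opposed were Pdzk1ip1 (-0.49), Itm2b (-0.48), Txnip (-0.46), Gm15427 (-0.46) and Rps27 (-0.45). Without cells 49, 53, 66 and 78 these values were 0.43 to 0.52 on the positive side and -0.38 to -0.33 on the other. At equal detected genes the positive genes had r of 0.35 to 0.47, and the opposed genes moved further, to -0.26 for Pdzk1ip1, -0.19 for Itm2b, -0.28 for Txnip and -0.25 for Rps27, with Gm15427 at -0.43. All are descriptions over n = 92 cells and carry no p.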

How the data were processed

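The values deposited by the authors are raw read counts of genes and ERCC spike-ins, from Smart-seq2 libraries without molecular identifiers. The submitters' processing notes name HTSeq 0.6.1, STAR 2.3.0, SAMtools 0.1.18 and the build mm10. The strand setting and annotation release used in counting are not given in the sources used here.

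Cells within 3 median absolute deviations (scaled by 1.4826) of the median on log10 gene counts, detected genes and spike-in share were kept, 92 of 96. Size factors were medians of ratios, from 602 genes and separately 8 spike-ins. Noise was fitted over 16 spike-ins (constant 0.120, slope 189.8), and the chi-square p-values, Benjamini-Hochberg adjusted over 21211 genes at 0.1, cover technical noise in these cells only. Correlations are Pearson's r on shares, or on log10(normalized count + 1). Lengths are unions of GENCODE M21 exons (GRCm38), and share intervals are exact (Clopper-Pearson, 95%). Python 3.11.15, numpy 2.4.6, pandas 2.3.3 and scipy 1.17.1 were used. The steps were also run on simulated data with planted changes, and the share of these that was called is not given here.

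The members, gene lists and choices were set with earlier results of these data known. Named were all members by role, with full values for catalytic subunits, the highest and lowest per length of each group, the 3 extremes in noise ratio and in r with the other members, the 3 largest pairs, and the 5 most like genes. The 5 most opposed genes and cell 9 were named after their values were seen. Alternatives covered the cells kept, size factors, noise fit, pseudocount, rank correlation, thinned counts, partial correlations and gene length.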

Additional observations from a re-analysis of the deposited data

Results flagged for a closer look

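Counts were also found in data that the comparisons did not use. The pseudogene row Psme2b-ps held 507 counts over the 92 cells, in 79 of them, beside 23687 counts of Psme2. Psmb5-ps held 4 counts in 3 cells, beside 12416 of Psmb5.

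In the 4 cells left out by the technical filters, the proteasome genes took 0.951% (cell 1), 0.580% (cell 2, which held 1035 gene counts), 0.615% (cell 6) and 0.938% (cell 36) of the gene counts, all within the range of the cells kept.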

How the results depend on the processing

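No paired analysis was possible because the cells form 1 group. Of 609 values under alternatives, 413 concerned the calls of single members. Of these, 410 stayed called or not called as before, with no check on their size. Of 144 values of r of the share, 108 stayed within 0.1 and 36 did not. Of the 52 others, 47 kept their size (r within 0.1, counts and folds within 1.5 times, shares within their SD over cells). All 109 alternative values of those r of the share that were of size 0.2 or more kept their sign. Smaller r did not always, as for MHC class I presentation, which went from -0.12 to 0.0024 at equal detected genes and 0.019 at equal spike-in share, and the ubiquitin genes, from -0.03 to 0.017 without cells 49, 53, 66 and 78. Between gene groups, r of the core chaperones with the non-ATPases went from 0.10 to -0.0060 at equal spike-in share, and that of the base chaperones with the lid from 0.0050 to -0.012. With spike-in size factors for genes, 3 members were called variable in place of 0, the median pairwise r was 0.19 (0.09 over all genes) and the summed level spanned 14.2-fold, and Psmd1, Psmd13 and Psme3 had ratios of 2.03, 1.84 and 1.89 to the technical value. Counting genes above the curve gave 2, and 9 with the noise fit from the 50th percentile, where 25.1% of all genes lay above it. At equal detected genes, r of the share was -0.37 with the log10 spike-in share, 0.46 with PC1 and 0.36 with G1/S. Without cells 49, 53, 66 and 78 these were -0.40, 0.43 and 0.36, and -0.35 with the stem cell list. As rho, PC1 gave 0.37 and G1/S 0.31. At equal spike-in share, chosen after seeing the data, PC1 gave 0.43, G1/S 0.34 and oxidative phosphorylation 0.62. The share of Psmb8 in its pair was 74.95% without length correction, and the longest-transcript share of 58.5% and the alternatives for r between gene groups were also chosen after seeing the data. Genes with means under about 300 raw counts were missed in some cells at this depth. With no animal named, variation between mice cannot be told apart from variation between cells.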
